A study of Mus musculus with 12 samples.

Results

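Collagens are secreted or membrane-bound proteins whose chains wind round each other into a rigid helix. Type IV collagen forms the network of basement membranes, the thin sheets on which endothelial cells sit, and the collagen chains of types XV and XVIII lie in the basement membrane zone of vessels. Fibrillar collagens, chiefly of types I and III, are assembled into the fibres of connective tissue and are made mostly by fibroblasts and other mesenchymal cells. Type VI collagen forms beaded filaments between basement membranes and fibres, and FACIT collagens (fibril-associated chains with an interrupted helix) decorate the surface of fibrils.

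The genes described here are the 44 rows of the count table with the symbol of a collagen chain, Col followed by a type number, the letter a and a chain number, out of 24421 gene rows. They were divided by textbook structure into 8 basement membrane chains (types IV, XV and XVIII), 11 fibrillar, 9 FACIT, 6 type VI, 3 short-chain network, 4 transmembrane and 3 anchoring or other chains. Of the 44 genes 38 passed the filter on low counts. The other 6, which were Col4a6, Col22a1, Col6a4, Col8a2, Col25a1 and Col26a1, averaged 0.183 to 1.77 CPM (read counts scaled to a common library total) in B16F10 and 0.0331 to 0.302 CPM in B16F0 and were not tested.

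Ribosome-bound mRNA was precipitated from subcutaneous tumours of 2 related mouse melanoma lines, B16F10 (highly metastatic, n = 7 libraries) and B16F0 (poorly metastatic, n = 5). All tumours grew for 12 days in C57BL/6 hosts of one genotype, Rpl22fl/flHA;Cdh5(PAC)-CreERT2, and all hosts received tamoxifen. In these hosts the recombinase, driven by the promoter of the endothelial cadherin gene Cdh5, switches the ribosomal protein Rpl22 to an HA-tagged form in endothelial cells, and the tag is used to pull down their ribosomes. Separate animals for the replicates are not stated in the labels, so every p-value here measures spread between libraries, which may be technical.

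Gene counts summed to 5322510 to 20569186 per B16F10 library and 10753106 to 17381336 per B16F0 library. All 20 endothelial markers passed the filter, with summed levels of 755 to 5068 CPM in B16F10 and 664 to 5273 CPM in B16F0. Melanocytic markers, genes of the pigment cell lineage of the tumour, summed to 9227 to 19770 and 11620 to 20010 CPM in the same groups, so the precipitates held tumour transcripts too. The libraries differed in endothelial content within each line. The endothelial score, the mean log2 CPM of the 20 markers, reached 7.05 in B16F10 replicate 4, 6.47 in B16F10 replicate 5 and 7.11 in B16F0 replicate 3, and 4.20 to 5.29 in the other 9 libraries. Sequencing lane 2 held B16F10 replicates 1 and 2 and B16F0 replicate 1. The 2 B16F10 libraries shared a library name prefix (leading digits, meaning not stated) that the B16F0 library did not have. In lane 1 B16F10 replicate 4 and B16F0 replicate 3 shared a prefix, and B16F10 replicate 3 and B16F0 replicate 2 another. Line and prefix thus cannot be told apart in lane 2, nor high endothelial score and prefix in lane 1. The 2 B16F10 libraries of lane 2 stood apart from the rest. Reads of 1494 olfactory, vomeronasal and taste receptor genes, which most tissues do not express, summed to 959 and 775 CPM there, against 10.6 CPM in B16F0 replicate 1 and 26.9 to 339 CPM in the other 9 libraries. Their fibroblast scores (mean log2 CPM of the 9 of 14 fibroblast markers that passed the filter) were 3.43 and 3.81, against -0.13 to 2.67 in the other 10 libraries.

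Basement membrane collagens were the most abundant class in 11 of 12 libraries. Per kilobase of exon, averaged over the 12 libraries, the 5 highest collagen levels were those of Col4a1 (143 CPM per kb), Col4a2 (94.5), Col3a1 (38.5), Col18a1 (31.1) and Col15a1 (29.9), of which only Col3a1 is fibrillar. Col1a1 followed at 25.4, Col16a1, a FACIT chain, at 16.6 and Col1a2 at 12.8 CPM per kb. Basement membrane chains took 40.0% to 76.1% of the collagen counts of a B16F10 library and 50.7% to 73.9% of those of a B16F0 library. The fibrillar share ran from 17.4% to 42.3% in B16F10 and from 17.2% to 34.5% in B16F0. The exception was B16F10 replicate 2 of lane 2, with a fibrillar share of 42.3% (95% Clopper-Pearson interval 41.9 to 42.7) above its basement membrane share of 40.0% (39.6 to 40.5). Intervals of these class shares were at most 0.652 percentage points to either side and cover counting error only.

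**Figure D1:**
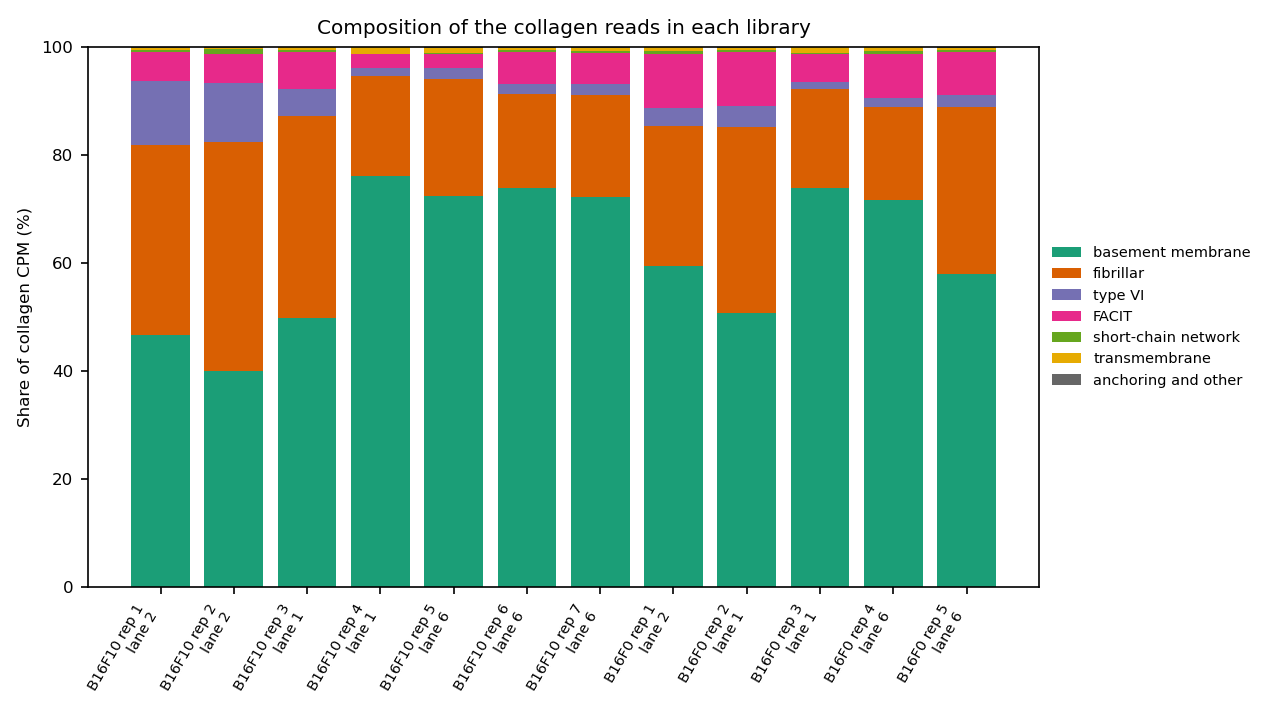
Share of the collagen CPM (%, vertical axis) taken by each of 7 collagen classes in each of the 12 libraries, B16F10 at the left and B16F0 at the right, with the lane under each name. The basement membrane share lies between 40.0% and 76.1%, and the type VI share reaches 11.8% and 10.9% in the 2 B16F10 libraries of lane 2.

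Summed levels of each class overlapped between the lines. The basement membrane sum was 915, 2253 and 4749 CPM (lowest, median and highest of 7) in B16F10, against 872, 765, 4484, 1125 and 1421 CPM in B16F0 replicates 1 to 5. The fibrillar sum was 247, 1157 and 2380 CPM in B16F10, against 382, 521, 1111, 270 and 760 CPM in B16F0. The 3 highest basement membrane sums were those of the 3 libraries of highest endothelial score, and the 2 highest fibrillar sums were those of the lane 2 B16F10 libraries. On the log2 scale the basement membrane sum was 0.57 higher in B16F10 (pooled SD 0.98) and the fibrillar sum 0.69 higher (pooled SD 1.1). Both differences were smaller than the spread between replicates. The ratio of the basement membrane to the fibrillar sum was 2.73 ± 1.47 in B16F10 (SD, n = 7) and 2.76 ± 1.25 in B16F0 (SD, n = 5). Without lane 2 it was 3.37 ± 1.20 (SD, n = 5) and 2.885 ± 1.41 (SD, n = 4). In lane 2 it was 1.32 and 0.947 in B16F10 replicates 1 and 2, against 2.28 in B16F0 replicate 1. The 3 libraries of highest endothelial score had 4.11 and 3.35 (B16F10 replicates 4 and 5) and 4.04 (B16F0 replicate 3). At lower scores B16F10 replicates 6 and 7 and B16F0 replicate 4 had 4.24, 3.83 and 4.16. B16F10 replicate 3 and B16F0 replicates 2 and 5 had 1.32, 1.47 and 1.87.

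Of the 38 tested collagens 2 rose in B16F10 and 0 fell, by edgeR's quasi-likelihood test with lane in the fit and Benjamini-Hochberg adjustment over all genes. The 2, 5.26% of those tested, were the basement membrane chain gene Col4a4 and the fibrillar chain gene Col27a1. Over all 13534 tested genes 1.3% were called higher and 1.47% lower, 2.77% in either direction. At an unadjusted p under 0.05 the collagens held 7 higher and 3 lower genes, 18.4% and 7.89% of those tested, against 7.13% and 7.71% of all genes. DESeq2 called 4 of the 38 collagens higher and 2 lower, and 3.01% of all tested genes higher and 3.29% lower. Fitted log2 fold changes (B16F10 over B16F0) were above 0 for 28 of 38 collagens, or 73.7%, with a median of 0.80, beside 52.5% and a median of 0.019 over all tested genes. Without lane 2 the median of the collagens was 0.41 with 26 of 38 above 0, beside 0.042 and 56.1% above 0 over all tested genes. With the melanocytic score as a covariate the collagen median was -0.085 with 18 of 38 above 0, beside a median of -0.0046 over all tested genes. With the fibroblast score the collagen median was 0.18 (27 of 38 above 0), beside 0.018 over all tested genes. It was 0.61 with the endothelial score (28 of 38) and 0.14 with both scores (25), beside 0.0079 and 0.0125. In limma-voom with quality weights it was 0.235 (24 of 38), and with the library name prefix in place of the lane 0.404 (26). Fewer cells of a type and less RNA per cell cannot be told apart in these bulk precipitates.

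**Figure D2:**
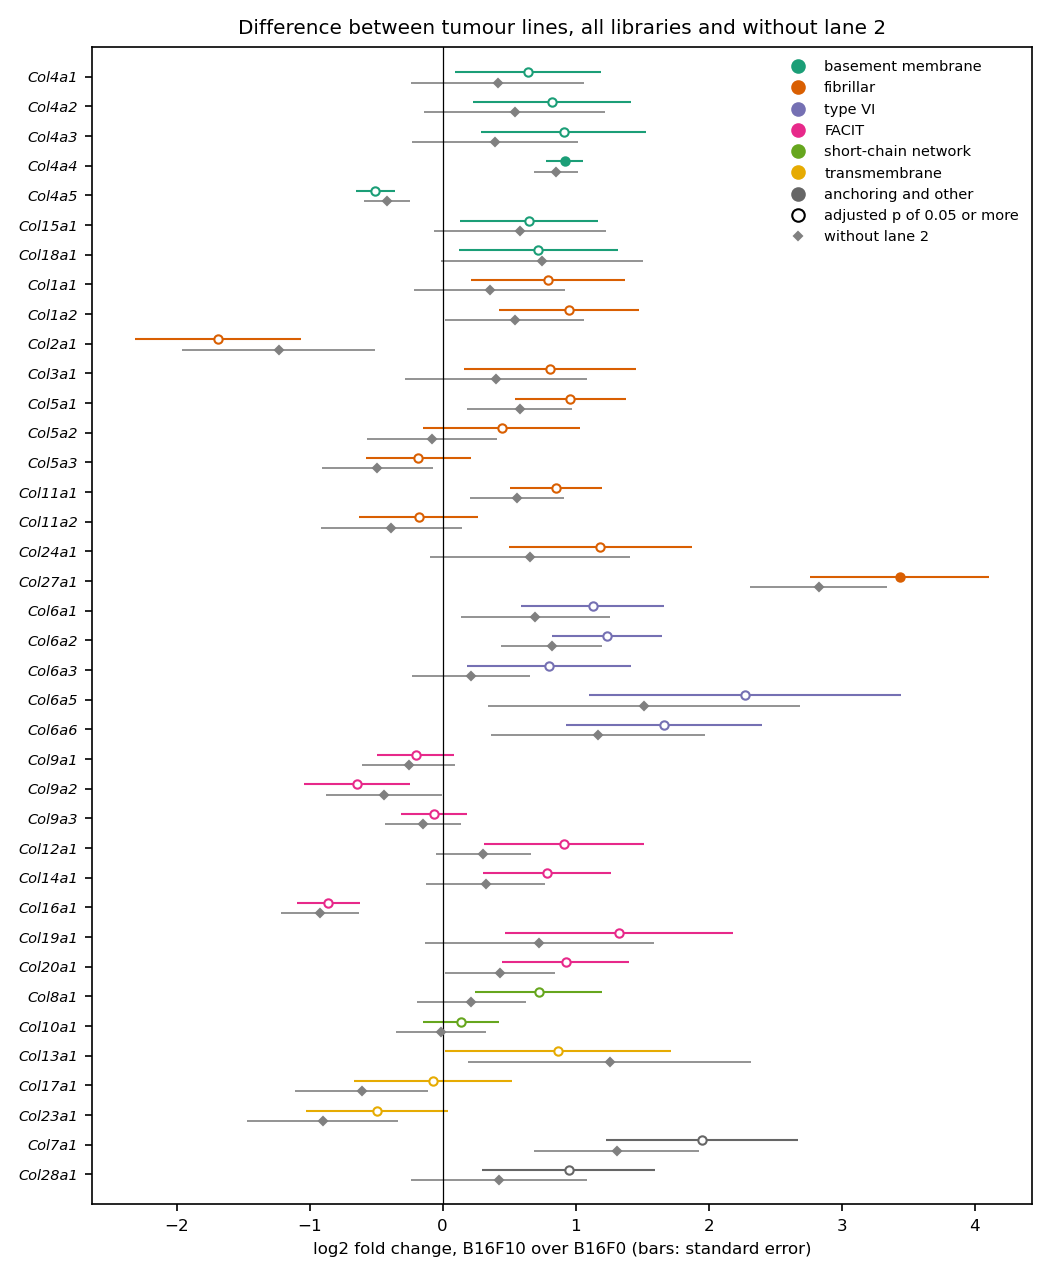
Log2 fold change, B16F10 over B16F0 (horizontal axis, bars are standard errors), of the 38 tested collagens in class order, with all libraries (circles, filled where the edgeR adjusted p is under 0.05) and without lane 2 (grey diamonds). Col4a4 at 0.92 and Col27a1 at 3.44 are the 2 filled circles, and Col4a4 has the shortest bar of the basement membrane chains.

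Col4a4 encodes one of the type IV chains best known from the basement membrane of the kidney glomerulus. It was at 18.8, 22.6 and 24.9 CPM (lowest, median and highest of 7) in B16F10, against 10.5, 10.3, 12.0, 14.9 and 11.7 CPM in B16F0 replicates 1 to 5. Every B16F10 library lay above every B16F0 library, a separation seen in 1 of 38 tested collagens (2.63%) and in 1.27% of all tested genes. It was fitted 0.92 ± 0.14 higher in B16F10 (log2, SE; edgeR adjusted p = 0.00347), with differences of 0.92, 1.15 and 0.73 in lanes 1, 2 and 6 on the log2(CPM + 0.5) scale, used for all differences within a lane. Without lane 2 it was 0.85 (edgeR adjusted p = 0.0354). Its slope on the endothelial score was -0.03 ± 0.09 (SE) and on the fibroblast score 0.06 ± 0.11 (SE). Between the libraries it varied little, from 10.3 to 24.9 CPM, while Col4a1 ran from 361 to 2262 CPM.

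Col27a1 encodes a fibrillar chain known from cartilage, and it held no more than 3 counts in 3 of the 5 B16F0 libraries. It was at 0.968, 8.19 and 11.7 CPM (lowest, median and highest of 7) in B16F10, against 0, 0.0605, 0.256, 1.02 and 2.2 CPM in B16F0 replicates 1 to 5. These B16F0 levels rest on 0, 1, 3, 18 and 21 counts, and 0 counts in B16F0 replicate 1 allow a level of up to 0.201 CPM (3 counts). The groups overlapped in 1 B16F10 library, replicate 3, which lay below 2 B16F0 libraries. On the log2 scale it was fitted 3.44 ± 0.67 higher in B16F10 (SE; edgeR adjusted p = 0.0149), with differences of 1.79, 4.37 and 2.146 in lanes 1, 2 and 6. Without lane 2 it was 2.83 (edgeR adjusted p = 0.0278). Leaving out B16F0 replicate 4 (3.42, edgeR adjusted p = 0.0623) or the lane term (3.39, 0.0666) ended the call.

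The start regions of both called genes are shown beside those of a type IV pair and of Col1a2, so that genes that moved with the line, with endothelial content and with fibroblast content can be set side by side. Each window runs from 250 bases before to 50 bases after the gene's RefSeq start on GRCm38.p6 (mm10), 5′ to 3′ on the gene's strand. Capitals mark the GC box GGGCGG, the CCAAT box, the TATA box TATAAA, the E-box CATGTG and the core GGAAG of ETS factor sites, or the reverse complement of any of these, and matches may overlap each other. The windows are chr8:11312555-11312854 on the plus strand for Col4a2, chr1:82586800-82587099 on the minus strand for Col4a4, chr4:63215162-63215461 on the plus strand for Col27a1 and chr6:4505368-4505667 on the plus strand for Col1a2.
Col4a2: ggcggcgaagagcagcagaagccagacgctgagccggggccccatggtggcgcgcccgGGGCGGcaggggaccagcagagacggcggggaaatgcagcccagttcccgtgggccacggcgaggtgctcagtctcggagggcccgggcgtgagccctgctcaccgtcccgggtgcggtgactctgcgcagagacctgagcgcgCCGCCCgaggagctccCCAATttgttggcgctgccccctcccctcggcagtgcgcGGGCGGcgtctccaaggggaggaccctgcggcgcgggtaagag
Col4a4: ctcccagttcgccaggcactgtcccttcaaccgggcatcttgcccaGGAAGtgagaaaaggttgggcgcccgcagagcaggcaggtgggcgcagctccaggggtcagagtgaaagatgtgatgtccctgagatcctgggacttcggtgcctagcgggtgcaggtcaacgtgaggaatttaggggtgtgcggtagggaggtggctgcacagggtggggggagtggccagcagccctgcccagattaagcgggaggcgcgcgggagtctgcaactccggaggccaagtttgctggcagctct
Col27a1: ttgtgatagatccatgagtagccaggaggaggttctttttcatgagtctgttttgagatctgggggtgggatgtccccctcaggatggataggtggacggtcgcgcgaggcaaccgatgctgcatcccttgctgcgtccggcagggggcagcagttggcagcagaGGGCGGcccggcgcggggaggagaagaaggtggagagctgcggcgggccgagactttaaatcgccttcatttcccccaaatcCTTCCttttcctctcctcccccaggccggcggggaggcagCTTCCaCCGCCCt
Col1a2: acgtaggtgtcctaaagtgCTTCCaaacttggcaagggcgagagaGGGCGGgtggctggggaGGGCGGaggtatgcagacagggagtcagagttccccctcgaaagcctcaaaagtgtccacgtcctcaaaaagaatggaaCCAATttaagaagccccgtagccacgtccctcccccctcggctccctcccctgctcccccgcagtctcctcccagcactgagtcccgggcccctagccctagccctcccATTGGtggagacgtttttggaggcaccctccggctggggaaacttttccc
The Col4a2 window also holds the start of Col4a1, and the Col4a4 window that of Col4a3, since both pairs are transcribed away from each other. The Col4a2 window held 3 GC boxes and 1 CCAAT box, the Col4a4 window 1 ETS core and none of the other motifs, the Col27a1 window 2 GC boxes and 2 ETS cores, and the Col1a2 window 2 GC boxes, 2 CCAAT boxes and 1 ETS core. Of 38 windows found for 35 collagen genes, 23 (60.5%) held a GC box, against 35.7% of all 32851 RefSeq windows of the same length. The collagen windows had a median GC content of 59.8%, against 52.7% over all windows. The CCAAT box was in 34.2% of the collagen windows and 37.4% of all, the TATA box in 13.2% and 13.6%, the E-box in 7.89% and 14.2%, and the ETS core in 78.9% and 71.4%. These matches are letters in a window and not shown to be sites.

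Among the basement membrane chains, the most abundant ones, Col4a1 and Col4a2, varied widely within each line. Col4a1, on the minus strand of chromosome 8 (11198423 to 11312826, mm10, GENCODE M21), was at 381, 1199 and 2262 CPM (lowest, median and highest of 7) in B16F10, against 439, 361, 2138, 581 and 799 CPM in B16F0 replicates 1 to 5. Col4a2, on the plus strand (11312805 to 11449287), was at 191, 702 and 1451 CPM in B16F10, against 217, 147, 1126, 337 and 455 CPM in B16F0. The highest levels of both genes lay in B16F10 replicates 4 and 5 and B16F0 replicate 3, and the groups overlapped. Their log2 fold changes were 0.64 ± 0.55 and 0.82 ± 0.59 (SE; edgeR adjusted p = 0.659 and 0.582). Their 5′ ends lie 21 bp apart, and their exons overlap by 22 bp. Over the 12 libraries the log2 ratio of Col4a1 to Col4a2 had an SD of 0.22, while the 2 genes themselves had SDs of 0.99 and 1.12 on that scale.

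Col4a3 and Col4a4, whose 5′ ends lie 72 bp apart on chromosome 1, did not vary as one. Col4a3 was at 0.605, 1.59 and 6.09 CPM in B16F10, against 0.602, 0.121, 1.36, 0.677 and 1.36 CPM in B16F0. Its 2 highest values were those of the lane 2 B16F10 libraries, and the log2 ratio of Col4a3 to Col4a4 had an SD of 0.76. In the annotation 563 bp of its exons are shared with C430014B12Rik on the opposite strand, and the strand setting of the counting is not given in the sources used here.

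Col4a5, on the X chromosome, was the one basement membrane chain with a fitted fold change below 0. It was at 13.7, 18.8 and 26.6 CPM in B16F10, against 34.9, 27.1, 38.5, 18.9 and 17.3 CPM in B16F0 replicates 1 to 5. The groups overlapped, and within lanes 1, 2 and 6 the differences were -0.52, -0.75 and -0.33. Its fit gave -0.51 ± 0.14 (log2, SE; edgeR adjusted p = 0.0939), past the threshold in DESeq2 (adjusted p = 0.0348).

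Col15a1 and Col18a1 encode chains of the vascular basement membrane zone, and endostatin is a fragment of the Col18a1 product. Col15a1 was at 80.2, 150 and 409 CPM in B16F10, against 81.8, 108, 496, 95.7 and 70.6 CPM in B16F0. Col18a1 was at 71.7, 145 and 588 CPM in B16F10, against 88.9, 112, 672, 75.9 and 65.6 CPM in B16F0. In both genes the 3 libraries of highest endothelial score held the 3 highest values. Their fold changes of 0.65 ± 0.52 and 0.72 ± 0.60 (log2, SE; edgeR adjusted p = 0.621 and 0.638) were near their standard errors.

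**Figure D3:**
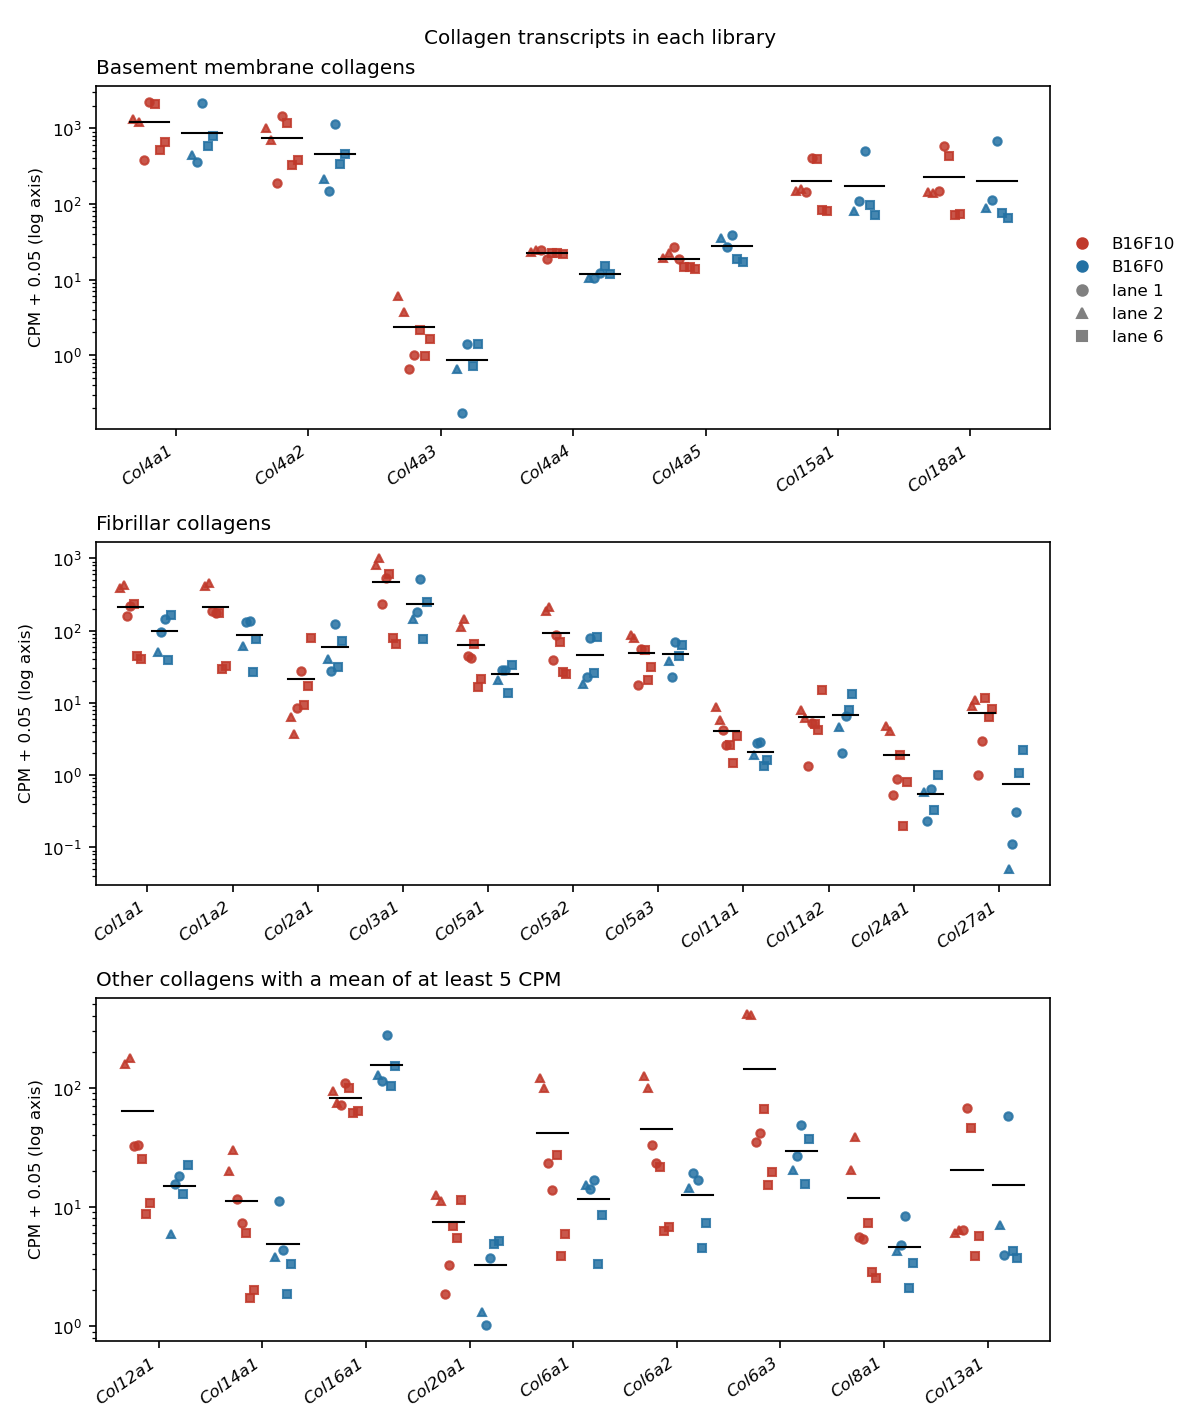
CPM plus 0.05 on a log axis of 27 tested collagens in each library, B16F10 (red) left of B16F0 (blue), with the lane as the marker shape and the group mean as a black line. Col4a4 separates the lines, at 18.8 CPM and above in B16F10 and at 14.9 CPM and below in B16F0, while the triangles of lane 2 lead most fibrillar and type VI genes in B16F10.

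The fibrillar genes of highest level, Col3a1, Col1a1 and Col1a2, encode the chains of the main connective tissue fibres. Col3a1 was at 65.9, 534 and 1028 CPM (lowest, median and highest of 7) in B16F10, against 145, 184, 516, 77.1 and 252 CPM in B16F0 replicates 1 to 5. Col1a1 was at 39.9, 220 and 424 CPM in B16F10, against 50.9, 96.4, 145, 39.0 and 163 CPM in B16F0. Col1a2 was at 29.2, 178 and 459 CPM in B16F10, against 61.4, 134, 137, 27.2 and 77.2 CPM in B16F0. The 2 highest values of all 3 genes were those of the lane 2 B16F10 libraries. Within lane 2, where line and library name prefix cannot be told apart, the log2 differences were 2.65, 2.98 and 2.81. They were 0.08 to 0.19, -0.10 to 0.66 and 0.27 to 0.42 within lanes 1 and 6. None of the 3 genes was called, with log2 fold changes of 0.81 ± 0.64, 0.79 ± 0.58 and 0.95 ± 0.52 (SE; edgeR adjusted p = 0.624, 0.586 and 0.441).

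The type V genes, whose chains help to start fibrils, were not called either. Col5a1 averaged 63.7 ± 48.0 CPM in B16F10 and 25.0 ± 7.72 CPM in B16F0 (SD, n = 7 and 5), Col5a2 92.9 ± 77.4 and 46.0 ± 32.1 CPM, and Col5a3 49.2 ± 27.4 and 47.9 ± 19.2 CPM in the same groups. Their log2 fold changes were 0.96, 0.44 and -0.18 (edgeR adjusted p = 0.301, 0.796 and 0.886), and without lane 2 they were 0.58, -0.08 and -0.49. Col2a1, the main fibrillar chain of cartilage, had the lowest fitted fold change of all tested collagens. It was at 3.70, 9.38 and 79.2 CPM in B16F10, against 40.3, 27.4, 123, 31.6 and 71.4 CPM in B16F0, and the 2 lowest of the 12 values were those of B16F10 replicates 1 and 2. The log2 fold change of -1.69 ± 0.62 (SE) missed the threshold (edgeR adjusted p = 0.21) and passed it without B16F10 replicate 7 (-2.25, 0.0231). Col11a1, Col11a2 and Col24a1 averaged 4.09, 6.43 and 1.86 CPM in B16F10 and 2.06, 6.86 and 0.508 CPM in B16F0, with log2 fold changes of 0.85, -0.18 and 1.19 that were not called (edgeR adjusted p = 0.26, 0.905 and 0.47).

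Type VI genes had fitted fold changes above 0 in all 5 tested members, from 0.80 to 2.27 on the log2 scale, and 0 were called. Col6a3, which encodes the largest common chain of type VI, was at 15.3, 41.6 and 418 CPM in B16F10, against 20.3, 26.4, 48.6, 15.6 and 37.2 CPM in B16F0. Its values of 418 and 407 CPM in B16F10 replicates 1 and 2 lay apart from the highest of the other 10 libraries, 65.6 CPM. Col6a1 and Col6a2 were at 120 and 126 CPM in B16F10 replicate 1 and at 99.3 CPM each in replicate 2, and at no more than 27.0 and 32.9 CPM in the other 10 libraries. Col6a2 was fitted 1.24 ± 0.41 higher (log2, SE; edgeR adjusted p = 0.159; DESeq2 adjusted p = 0.0277), and without lane 2 it was 0.82 (edgeR adjusted p = 0.526). The low type VI members Col6a5 and Col6a6 averaged 2.204 and 1.61 CPM in B16F10 and 0.353 and 0.431 CPM in B16F0.

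Of the 8 tested FACIT genes 4 had fold changes above 0 and 4 below. Col16a1, whose chain sits on fibrils and near basement membranes, was the highest of them. It was at 60.8, 74.3 and 109 CPM in B16F10, against 127, 113, 279, 103 and 151 CPM in B16F0 replicates 1 to 5. The groups overlapped in 1 B16F10 library, replicate 4, at 109 CPM. Within lanes 1, 2 and 6 the log2 differences were -1.01, -0.61 and -0.78, and the fit gave -0.86 ± 0.24 (log2, SE; edgeR adjusted p = 0.0813). The adjusted p was 0.0149 in DESeq2, and over 31 other settings it ran from 0.002 to 0.516 with 10 past the threshold of their setting. Col12a1 was at 158 and 177 CPM in the lane 2 B16F10 libraries and at 8.68 to 32.9 CPM in the other 5, against 5.89 to 22.2 CPM in B16F0. Col14a1 and Col20a1 averaged 11.2 and 7.47 CPM in B16F10 and 4.84 and 3.18 CPM in B16F0 and were not called (edgeR adjusted p = 0.504 and 0.403).

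Of the remaining classes, Col13a1 and Col8a1 were the members above 5 CPM. Col13a1, which encodes a transmembrane collagen, was at 3.85, 6.29 and 67.4 CPM in B16F10, against 7.03, 3.87, 57.8, 4.17 and 3.67 CPM in B16F0. The 3 high values, 67.4 CPM in B16F10 replicate 4, 46.2 CPM in B16F10 replicate 5 and 57.8 CPM in B16F0 replicate 3, were those of the libraries richest in endothelial markers, and the other 9 libraries held 3.67 to 7.03 CPM. Col8a1, a short-chain network collagen of vessel walls and the eye, was at 2.503, 5.57 and 38.7 CPM in B16F10, against 4.22, 4.78, 8.36, 2.03 and 3.35 CPM in B16F0. Neither was called (edgeR adjusted p = 0.706 and 0.536).

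In fibrillar and type VI collagens the 2 B16F10 libraries of lane 2 held the highest sums of all libraries. Both lay above the other 5 B16F10 libraries in 8 of 11 fibrillar, 4 of 5 type VI and 3 of 8 FACIT genes, but in 1 of 7 basement membrane genes. Over all tested collagens this held for 20 of 38 (52.6%), against 12% of all tested genes. The type VI sum was 236 ± 283 CPM in B16F10 and 54.6 ± 21.3 CPM in B16F0 (SD, n = 7 and 5), and without lane 2 it was 71.5 ± 39.7 and 55.7 ± 24.5 CPM (n = 5 and 4). The fibrillar sum was 1152 ± 817 CPM in B16F10 and 609 ± 335 CPM in B16F0, and without lane 2 it was 731 ± 458 and 666 ± 358 CPM. The basement membrane sum was 2431 ± 1530 CPM in B16F10 and 1734 ± 1558 CPM in B16F0 with all libraries, and 2417 ± 1867 and 1949 ± 1711 CPM without lane 2. Fibroblast markers summed to 135 and 166 CPM in these 2 libraries and 42.8 to 135 CPM in the other 5 of B16F10, against 45.6 to 148 CPM in B16F0. Pericyte and smooth muscle markers, of which 11 of 13 passed the filter, summed to 430 and 468 CPM there and 112 to 391.5 CPM in the other 5 of B16F10, against 98.7 to 387 CPM in B16F0. The part of these markers, and of the receptor gene reads given above, in the collagen levels of lane 2 was not tested.

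Across libraries of the same line and lane, 5 of 38 tested collagens (13.2%) followed the endothelial score, against 4.11% of all tested genes. A gene was said to follow a score where its log2 CPM rose by more than 0.5 per unit of the score with an adjusted p under 0.05 in limma-voom, lane and line being in the fit. Of these genes 4 belonged to the 7 tested basement membrane chains. The slopes were 0.99 ± 0.22 for Col4a1 (SE; limma-voom adjusted p = 0.0192), 1.05 ± 0.26 for Col4a2 (0.0326), 1.00 ± 0.12 for Col15a1 (0.000281) and 1.18 ± 0.13 for Col18a1 (0.000104). The other was Col13a1, with a slope of 1.86 ± 0.13 (SE; limma-voom adjusted p = 1.59e-05). The median slope was 0.99 over the 7 basement membrane genes and 0.36 over the 11 fibrillar genes, beside -0.011 over all tested genes. With all libraries in the fit, no fibrillar, FACIT or type VI gene followed this score. In B16F10 replicates 4 and 5 alone, 6 of 38 collagens (15.8%) and 4 of 7 basement membrane genes lay above all other B16F10 libraries, against 7.94% of all tested genes. No collagen had a called slope below -0.5 on the endothelial score (0.133% of all genes) or the fibroblast score (0.0222%).

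These slopes rested on 3 libraries. Among them B16F10 replicate 5 had 31.38% of its counts in the ribosomal RNA precursor Rn45s, against 0.2108% to 1.75% in the other B16F10 libraries. With that library left out, 5 of 38 collagens followed the score, against 5.73% of all genes. Without B16F10 replicates 4 and 5 and B16F0 replicate 3, the 3 of highest score, 0 collagens and 0 of all tested genes followed it by limma-voom. The slopes of Col4a1, Col4a2 and Col13a1 were then -0.96, -0.98 and -0.17, and those of Col15a1 and Col18a1 0.32 and 0.06. The calls of Col4a1 and Col4a2 also ended when 1 library was left out, either B16F10 replicate 3 or 4 or B16F0 replicate 2 or 3 (limma-voom adjusted p from 0.067 to 0.241) and without the lane term (0.124 and 0.278). For Col4a2 alone the call was lost without B16F10 replicate 7 (0.0642) or B16F0 replicate 4 (0.052). Among the 9 libraries of lower score the basement membrane sum was 2677 and 2253 CPM in the lane 2 B16F10 libraries and 765 to 1421 CPM in the other 7. Without lane 2, 7 of 38 collagens followed the score (18.4%), against 5.18% of all genes. These included the fibrillar gene Col5a3 (slope 0.61; limma-voom adjusted p = 0.0302) and the type VI gene Col6a5 (1.78; 0.00704), a gene of few counts. Without B16F0 replicate 1 the count was 8 of 41, against 5.88% of all genes, with Col3a1, Col5a3 and Col6a5 among them.

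**Figure D4:**
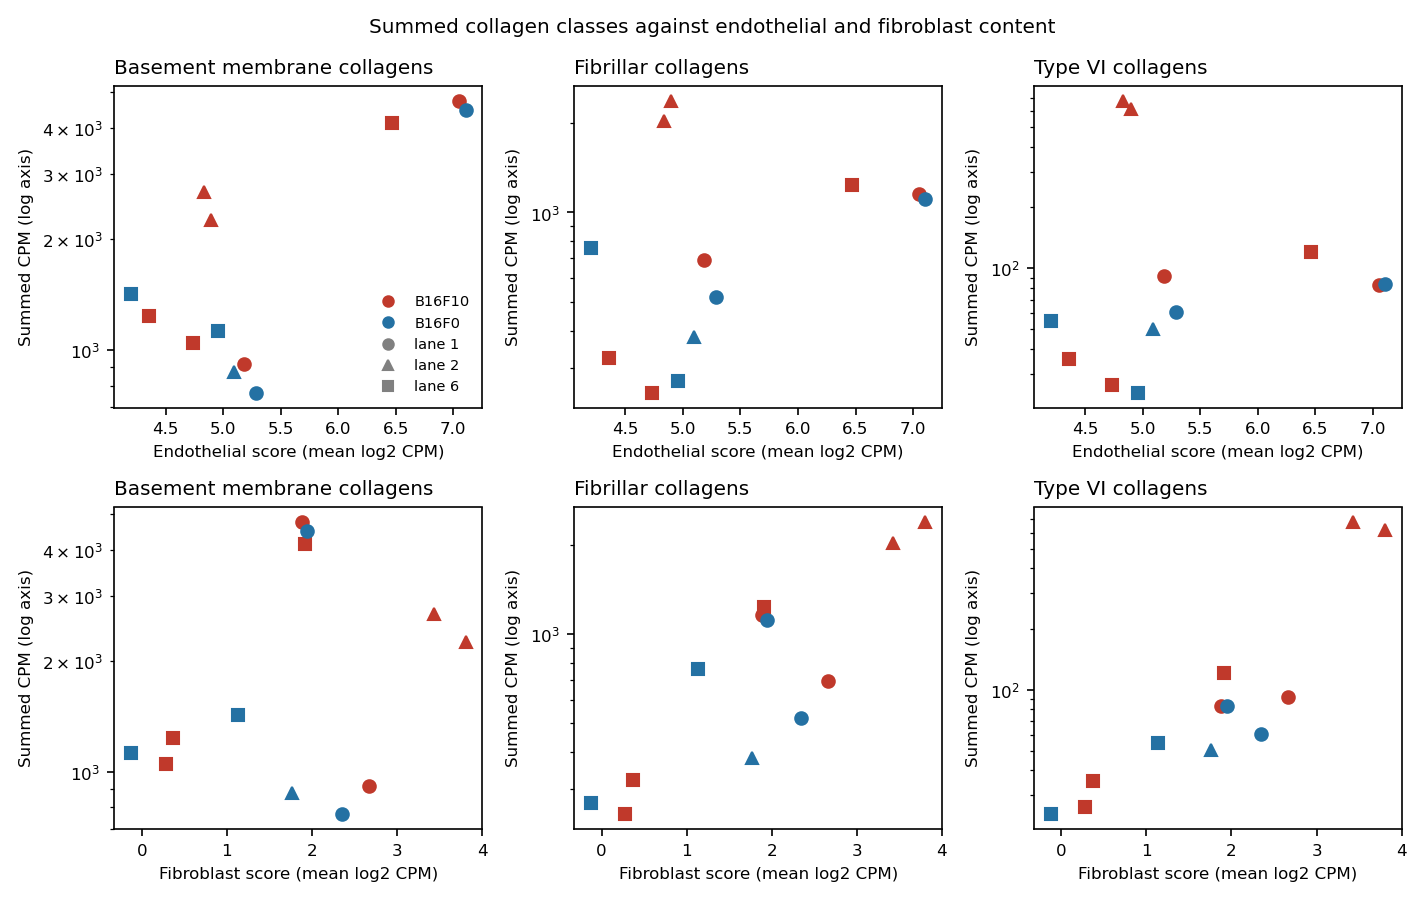
Summed CPM (log axis) of the basement membrane, fibrillar and type VI collagens in each library against its endothelial score (upper row) and fibroblast score (lower row), both in mean log2 CPM, for B16F10 (red) and B16F0 (blue) with the lane as marker shape. The 3 libraries of highest endothelial score hold basement membrane sums of 4141 to 4749 CPM, and the 2 lane 2 B16F10 libraries have the highest fibrillar and type VI sums.

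Another 5 of 38 collagens (13.2%) followed the fibroblast score, against 0.148% of all tested genes. They were the fibrillar genes Col1a2 (slope 1.34 ± 0.16, SE; limma-voom adjusted p = 0.0111) and Col5a1 (1.06 ± 0.14; 0.0139), the FACIT gene Col14a1 (1.26 ± 0.20; 0.0317) and the type VI genes Col6a1 (1.34 ± 0.18; 0.0163) and Col6a2 (1.04 ± 0.16; 0.0299). With all libraries in the fit, no collagen followed both scores. Of the 9 tested fibroblast markers that make up the fibroblast score, 0 followed it, with a median slope of 1.01. Of the 20 endothelial markers 19 followed the endothelial score. The tested fibroblast markers averaged from 1.59 CPM (Mfap5) to 48.6 CPM (Fbln1) over the 12 libraries. Col1a1 and Col3a1 had slopes of 1.37 ± 0.26 and 1.33 ± 0.34 (SE) that missed the threshold (limma-voom adjusted p = 0.0906 and 0.252). The median slope on the fibroblast score was 1.34 over the 5 type VI genes, 1.05 over the 11 fibrillar genes and 0.38 over the 7 basement membrane genes, beside a median of -0.00024 over all tested genes. The fibroblast and pericyte scores were both highest in the lane 2 B16F10 libraries, and their parts cannot be told apart there.

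The fibroblast calls were sensitive to the libraries used. Without lane 2, 0 collagens were called, against 0.0448% of all genes, while the slopes of the 5 genes were 0.90 to 1.34. Without the 3 libraries of highest endothelial score 15 of 37 collagens followed the fibroblast score, against 1.46% of all genes. Among these 15 were the basement membrane genes Col4a1 (slope 0.68; limma-voom adjusted p = 0.0386) and Col4a2 (0.76; 0.0453). Without any 1 of B16F10 replicates 5, 6 and 7 or B16F0 replicate 5 the count was 0, against 0.0148% to 0.0354% of all genes. Without B16F10 replicate 2 it was 2 (0.0596% of all genes), and without B16F0 replicate 1 it was 1 (0.13%). With Pdgfra, a receptor gene of fibroblasts, as the only marker the count was 0, and 0 of all tested genes followed it.

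**Figure D5:**
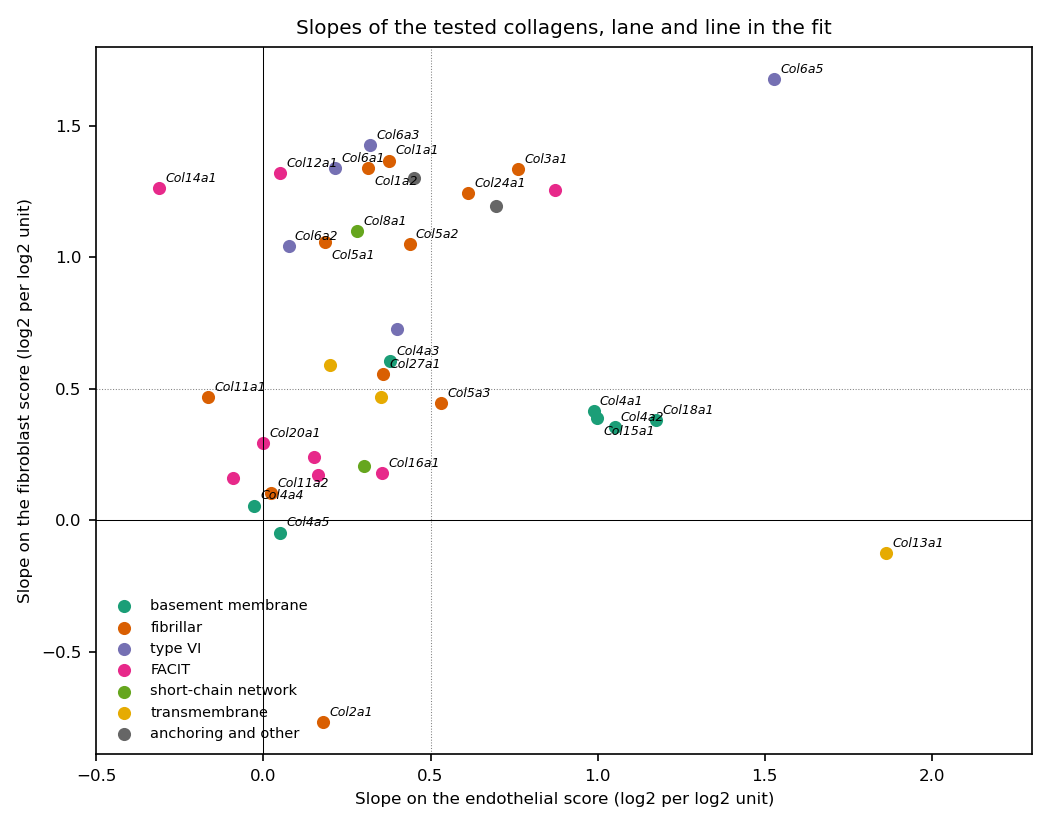
Slope on the endothelial score (horizontal axis) against the slope on the fibroblast score (vertical axis), in log2 CPM per unit of score, of the 38 tested collagens coloured by class, with dotted lines at 0.5. Col4a1, Col4a2, Col15a1 and Col18a1 lie together at endothelial slopes of 0.99 to 1.18, and Col4a4 lies near 0 on both axes.

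Genes that act on collagen were listed by role. The folding and secretion list held chaperones and hydroxylases of the endoplasmic reticulum. Of its 21 tested members 0 were called in edgeR, with 4 higher (19.0%) and 0 lower at an unadjusted p under 0.05, against 7.13% higher and 7.71% lower over all tested genes. The collagen chaperone gene Serpinh1 averaged 631 ± 190 CPM in B16F10 and 570 ± 209 CPM in B16F0 (SD, n = 7 and 5), P4hb, the shared subunit of prolyl hydroxylase, 1251 ± 360 and 1523 ± 380 CPM, its catalytic partner P4ha1 276 ± 84.96 and 300.4 ± 37.4 CPM, and Mia3, a gene of collagen export, 467 ± 156 and 337 ± 61.4 CPM.

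In the processing and crosslinking list 2 of 12 tested members rose and 0 fell (16.7% called, against 2.77% of all genes). Adamts14, a protease that trims the ends of fibrillar procollagen, was at 4.63, 10.6 and 17.3 CPM (lowest, median and highest of 7) in B16F10, against 1.34 to 2.42 CPM in B16F0. The log2 difference fitted was 2.152 ± 0.38 (SE; edgeR adjusted p = 0.00791), and without lane 2 it stayed past the threshold (adjusted p = 0.0488). Loxl2, an enzyme that crosslinks collagen, type IV among others, was at 33.4, 42.9 and 56.1 CPM in B16F10, against 19.2 to 27.8 CPM in B16F0. The fit put it 0.87 ± 0.16 higher (log2, SE; edgeR adjusted p = 0.00955), and without lane 2 it was 0.72 (0.0598). For both genes every B16F10 library lay above every B16F0 library. Pxdn, Sparc and Loxl3, the other members of high level, averaged 89.8, 1364 and 60.5 CPM in B16F10 and 70.6, 1284 and 45.3 CPM in B16F0 and were not called.

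Of 10 tested collagen receptor genes 0 rose and 1 fell, against 1.3% and 1.47% of all tested genes. Adgrg1, an adhesion receptor that binds type III collagen, was at 40.2, 45.2 and 64.8 CPM in B16F10, against 77.0, 108 and 176 CPM (lowest, median and highest of 5) in B16F0. Every B16F10 library lay below every B16F0 library, as in 1.46% of all tested genes. The fitted log2 difference was -1.22 ± 0.17 (SE; edgeR adjusted p = 0.00192; 0.00977 without lane 2). The integrin genes Itgb1 and Itga1 averaged 1082 and 76.3 CPM in B16F10 and 1308 and 96.4 CPM in B16F0, and Ddr2, a receptor kinase for fibrillar collagen, 509 and 409 CPM, none of them called. The pigment gene Oca2, a tumour cell marker, was lower in B16F10 (117 ± 29.8 CPM, n = 7) than in B16F0 (244 ± 47.3 CPM, SD, n = 5; edgeR adjusted p = 0.00379). It was the only 1 of 12 tested melanocytic markers called (8.33%, against 1.47% of all tested genes called lower). Of the 12, 10 had fitted fold changes below 0 and 2 above. With the melanocytic score as a covariate the calls of Adamts14, Loxl2 and Adgrg1 stayed. Itga1 (-0.59; edgeR adjusted p = 0.0392) and Loxl3 (0.67; 0.0439) passed the threshold in that fit. The part of these markers in the receptor and enzyme levels was not otherwise tested.

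In the authors' deposited table, made from the same libraries, 3 of 41 listed collagens had a false discovery rate under 0.05, against 3.24% of its 14108 rows. There the log2 fold changes in the authors' deposited table were 0.90 for Col4a4 (false discovery rate 0.0034), 3.40 for Col27a1 (0.00744) and -0.83 for Col16a1 (0.0141). The last of the 3 is the one that missed the threshold in the fit described here.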

How the data were processed

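The authors deposited read counts of each gene as whole numbers, for 12 libraries (B16F10, n = 7; B16F0, n = 5), and how they were made is known only from the submitters' processing notes, which list cutadapt 1.16, STAR 2.2.1, featureCounts 1.6.0, R 3.3.2, edgeR and mm10 without their roles. The libraries were made with a ScriptSeq kit, per the labels' protocols. Neither annotation nor strandedness of the counts was given in the sources used here. The authors' deposited table of log2 fold changes and p-values was read with its decimal commas as points; a deposited normalized table had lost its decimal marks and was left out.

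Genes passing filterByExpr (minimum count 10) in edgeR 4.0.16 (R 4.3.3) were scaled by TMM and tested by quasi-likelihood with lane and line in the fit, Benjamini-Hochberg adjustment over all tested genes and a threshold of 0.05. CPM values use TMM-scaled totals. The lane was read from the library names in the labels, and both lines were on each of the 3 lanes. Slopes on marker scores used limma-voom (limma 3.58.1) with lane and line in the fit. No class sum or marker score was tested. Of 31 pairs of libraries of a line 0 agreed within sampling noise. The tests were tried on simulated counts. Totals of 5322510 to 20569186 counts limit genes of few CPM, most in the shallowest library, B16F10 replicate 1.

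Named were all tested basement membrane and fibrillar chains, others with a call or a mean of at least 5 CPM, and called or abundant partner genes (the 4 highest of each list). The members, gene lists, rules and alternatives were chosen with earlier results of these data known. Alternatives were other scalings, filters, batch terms and covariates, DESeq2 1.42.0, limma-voom, single markers and libraries left out. Coordinates and exon lengths came from GENCODE M21, promoter windows from RefSeq (GRCm38.p6). All 44 genes were matched to GENCODE by symbol, and 35 of them to 38 windows.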

Additional observations from a re-analysis of the deposited data

Results flagged for a closer look

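In B16F0, 3 collagens each had 1 library far above the other 4, and in all of them it was B16F0 replicate 3. Col15a1 was at 495.5 CPM there and at 70.6 to 108 CPM in the other B16F0 libraries. Col18a1 was at 672.4 CPM there and at 65.6 to 111.6 CPM elsewhere in B16F0. Col13a1 was at 57.81 CPM there and at 3.67 to 7.03 CPM in the other 4. This library had the highest endothelial score of all, 7.11. In all, 60 sets of values (genes and classes within a line) were examined, of which these 3 were flagged, and chance flags about 1 in 20.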

How the results depend on the processing

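The calls of Col4a4 held under 30 of 31 alternatives (log2 fold change 0.76 to 1.01) and those of Col27a1 under 28 (2.64 to 4.04). The count of collagens called higher was 1 without the lane term, 4 in DESeq2 and 1 to 2 with single libraries left out. The count called lower, 0 in the fit reported, was 1 with the library name prefix in place of the lane, without a filter, in limma-voom, without the 3 most endothelial libraries, and with the endothelial score or both scores as covariates, 2 in DESeq2, with the melanocytic score and at a false discovery rate of 0.1, and 0 to 1 with single libraries left out. Col16a1 was in each of these lower counts except that without B16F10 replicate 7, which was Col2a1. The endothelial count of 5 was 3 without the lane term, 0 without the 3 libraries of highest score and 3 to 8 with single libraries left out. The fibroblast count of 5 was 10 without the lane term, 0 without lane 2, 15 without the 3 libraries of highest endothelial score, 3 by edgeR, 0 with Pdgfra alone and 0 to 6 with single libraries left out. Class sums and their ratio moved by less than the replicate spread under every alternative run, but that spread exceeds the differences themselves. Over these settings the log2 difference between the lines ran from 0.307 to 0.98 for the basement membrane sum and from 0.0472 to 1 for the fibrillar sum. It ran from 0.281 to 1.62 for the type VI sum. For the log2 ratio of basement membrane to fibrillar it ran from -0.323 to 0.26, so its sign was not stable.

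Replicate numbers are shared between the lines. With the replicate block in place of the lane, 0 collagens were called higher and 0 lower (Col4a4 0.94, edgeR adjusted p = 0.146; Col5a3 0.25), and over all genes 30 were called higher and 28 lower, against 176 and 199. Deviations of same-numbered libraries correlated at -0.27, -0.27, -0.24, -0.29 and 0.32, and 0 of 5 B16F0 libraries matched their own number best, so the numbers were not taken as pairs.

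Log2 fold changes that changed sign, none of them called in the fit reported, were as follows. With both scores as covariates Col1a1 was at -0.045, Col5a2 at -0.049 and Col3a1 at -0.26, and with the fibroblast score alone Col3a1 was at -0.064. With the prefix term Col5a2 was at -0.029, Itgb1 at 0.015 and P4hb at 0.038. In limma-voom with quality weights Col1a1 was at -0.15, Col5a2 at -0.17, Col3a1 at -0.31, Itgb1 at 0.015, P4ha1 at 0.025 and P4hb at 0.12. With the melanocytic score Col3a1 was at -0.16, Col5a2 at -0.22, Sparc at -0.31, Col15a1 at -0.34, Col18a1 at -0.48, Col4a2 at -0.58, Col4a1 at -0.64, Pxdn at -0.74, Col13a1 at -0.91, P4ha1 at 0.027 and P4hb at 0.037. Without the lane term Col5a3 was at 0.035. Without lane 2 Col5a2 was at -0.0801, Itgb1 at 0.027 and P4hb at 0.044. In B16F10 replicate 5 and B16F0 replicate 5 the ribosomal RNA precursor Rn45s took over 5% of counts (31.38% and 8.91%). Without these 2 libraries Sparc was at -0.078 and Col11a2 at 0.054. Without the 3 libraries of highest endothelial score P4ha1 was at 0.00056 and Col11a2 at 0.0043, and the endothelial slopes of Col13a1, Col4a1 and Col4a2 were -0.17, -0.96 and -0.98. With single libraries left out the ranges were -0.099 to 1.03 for Col5a2, -0.51 to 0.099 for Col5a3, -0.48 to 0.096 for Col11a2, -0.30 to 0.011 for Itgb1 and -0.43 to 0.029 for P4hb. The cause of these changes was not tested. Collagens of few CPM rest on few counts, so a difference in them may not be detectable at this depth.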

Other observations

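Several collagen genes lie beside each other, and the spread of their ratio can be set beside that of each gene. Col6a1 and Col6a2, on the same strand of chromosome 10, had SDs of 1.56 and 1.47 on the log2 scale over the 12 libraries, and their log2 ratio had an SD of 0.33. Col3a1 and Col5a2, which converge on chromosome 1 with 24614 bp between them, had SDs of 1.38 and 1.19 and a ratio with an SD of 0.62. In Col9a1 and Col19a1, also on chromosome 1, the SD of the ratio was 1.28, above the SD of 0.36 of Col9a1 and near that of Col19a1, 1.26. Neighbouring genes share their libraries and the content of cells in them, so these spreads are descriptions.

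The anchoring fibril gene Col7a1, the main collagen of the junction between epidermis and dermis, was at 0.666, 1.82 and 5.93 CPM (lowest, median and highest of 7) in B16F10, against 0.0669, 0.363, 0.171, 0.508 and 1.68 CPM in B16F0 replicates 1 to 5. Its log2 fold change of 1.95 ± 0.72 (SE) missed the threshold in edgeR (adjusted p = 0.216), and it was among the 4 collagens that DESeq2 called higher. It was chosen for mention after its values were seen. The cartilage chains Col9a1, Col9a2 and Col9a3 had group means of 1.03 to 3.44 CPM in B16F10 and 1.598 to 3.996 CPM in B16F0, with fitted log2 fold changes from -0.64 to -0.06 that were not called.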
